A study of Mus musculus with 27 samples.

Results

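Elastin and the genes whose products assemble, decorate and cross-link elastic fibres were followed in C2C12 cells, an established mouse myoblast line. Expression was given as FPKM, the fragments of a gene relative to its length and to all fragments of the sample, and was read for 10 genes (Eln, Fbn1, Fbn2, Fbln1, Fbln2, Fbln5, Emilin1, Mfap5, Lox and Loxl1) of 24825 listed by symbol. Eln was chosen by its log2 fold change with full-length NFIA at day 0, where it was among the strongest rises, and the rest because they belong to the same fibre, so the values of full-length NFIA against control at day 0 are given as a description with no test, for Eln and for the other members.

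The cells were controls or had received, from a retroviral vector, NFIA in its full-length form or as the Δpro#3 mutant, which lacks part of the proline-rich domain, both with a 3xFLAG tag. NFIA is a transcription factor of the nuclear factor I family that promotes the adipocyte program. At confluence the cells of every group were placed in the same adipogenic medium (isobutylmethylxanthine, indomethacin, dexamethasone, insulin, T3 and rosiglitazone, then insulin, T3 and rosiglitazone alone), and polyA RNA was sequenced at day 0, before it, and at day 7, with or without forskolin (10 µM for 4 h), an activator of adenylyl cyclase. The 9 groups of construct, day and forskolin had 3 samples each, 27 in all. The labels do not say whether the 3 samples of a group were separate cultures, so p-values measure the spread between these samples.

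Elastic fibres consist of a core of cross-linked elastin on a scaffold of microfibrils. Cells secrete soluble tropoelastin, fibulin-5 and related proteins guide it onto microfibrils built from fibrillins, and lysyl oxidases join its lysines into the durable network that lets arteries, lung and skin recoil. In adipose tissue such fibres belong to the stroma, and the matrix of the fat cell changes as precursors differentiate.

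The total per sample ran from 9567769 to 27230965 fragments (median 17707223). Nfia, the introduced gene, was at 225 to 594 FPKM in the cells with full-length NFIA and at 262 to 480.5 FPKM in the cells with the Δpro#3 mutant, and in control cells at 0.0885 to 0.253 FPKM at day 7. At day 0 the control samples had 0.879, 7.35 and 0.175 FPKM of Nfia, so replicate 2 of that group stood apart. Carry-over of RNA from another library into this sample was not tested, and the day 0 control means of Nfia and Eln rest mostly on it. The summed level of 9 muscle markers was 1381 to 1466 FPKM in control, 134 to 143 FPKM in full-length NFIA and 399 to 408 FPKM in Δpro#3 cells at day 0, and 10311 to 11938, 1796 to 2430.5 and 11590 to 12084 FPKM at day 7. Such a sum follows its most abundant genes. In Δpro#3 cells at day 7, 4 of the 9 were lower than in control and 3 higher (adjusted p under 0.05, tested as below). The median log2 difference of the 9 was -0.29. The sum of 8 adipocyte markers was 21.1 to 24.3 FPKM in control, 72.6 to 78.7 FPKM in full-length NFIA and 38.8 to 51.1 FPKM in Δpro#3 cells at day 0, and at day 7 was 202 to 231 FPKM in control and 13025 to 14417 FPKM in full-length NFIA cells. In Δpro#3 cells that sum was 1742, 417 and 476 FPKM at day 7 and 506, 167 and 206 FPKM with forskolin, so replicate 1 stood apart in both groups. Sums of 6 fibroblast markers were 300.4 to 326 FPKM in control, 554 to 593 FPKM in full-length NFIA and 818 to 840 FPKM in Δpro#3 cells at day 0, and 202 to 322, 674 to 884 and 1067 to 1706 FPKM at day 7 with and without forskolin. The fibroblast markers did not all rise. With either construct, 3 of 5 tested were higher and 2 lower than in control at day 0 (adjusted p under 0.05, tested as below). At day 7, 3 of 4 were higher and 0 lower, and with forskolin 3 were higher and 1 lower. The 5 smooth muscle markers summed to 1041 to 1088 FPKM in control, 708 to 761 FPKM in full-length NFIA and 768 to 808 FPKM in Δpro#3 cells at day 0, to 1262 to 1346, 433 to 618 and 1278 to 1337 FPKM at day 7, and to 837 to 955, 318 to 478 and 942 to 1167 FPKM with forskolin. The 4 blood markers to 2.02 to 26.6 FPKM and the 3 endothelial markers to 0.0214 to 1.39 FPKM. These cell type markers moved with the constructs, and their part in the results on elastic fibre genes was not tested. In such bulk RNA, fewer cells that express a gene and less of its RNA per cell cannot be told apart.

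Comparisons were made on log2(FPKM + 1) with limma, with p-values adjusted over all genes tested by the Benjamini-Hochberg method. A gene was said to be called when its adjusted p was under 0.05 and its FPKM + 1 differed by more than 3-fold. The log2 fold changes are on this scale, which shrinks those of weakly expressed genes. Of the 10 members, 9 passed the filter of a mean FPKM of 0.5 in the samples compared. The exception, Fbn2, which encodes fibrillin-2, had 3 fragments in all 27 samples: it was above 0 in 1 Δpro#3 sample of day 0 (0.00436 FPKM) and 1 control sample of day 7 (0.0163 FPKM).

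Promoter sequences were looked up for the members, since the study's factor binds DNA at TTGGC and its reverse complement, which can be paired as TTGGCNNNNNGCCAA. From the RefSeq table for GRCm38.p6, the 250 bases before the start were read for 5 members, at 7 starts. The other members were not searched, so whether their promoters hold the motif was not tested. The promoters of Fbln5, the member whose levels ran most closely with those of Eln, are shown with those of Fbln2 and Emilin1. Of the 5 members read, Fbln2 and Emilin1 were those whose windows held the motif, in capitals where it lies.
Fbln5 (chr12:101818485-101818734, minus strand): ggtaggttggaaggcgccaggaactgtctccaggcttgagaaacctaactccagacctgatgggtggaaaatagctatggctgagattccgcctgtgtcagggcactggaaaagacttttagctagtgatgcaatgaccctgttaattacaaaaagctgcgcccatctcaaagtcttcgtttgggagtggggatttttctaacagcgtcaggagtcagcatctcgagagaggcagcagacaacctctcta
Fbln5 (chr12:101819120-101819369, minus strand): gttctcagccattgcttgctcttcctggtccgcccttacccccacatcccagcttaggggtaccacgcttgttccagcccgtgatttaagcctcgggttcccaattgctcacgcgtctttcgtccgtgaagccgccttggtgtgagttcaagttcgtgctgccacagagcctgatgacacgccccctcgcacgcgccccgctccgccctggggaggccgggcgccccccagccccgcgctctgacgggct
Fbln2 (chr6:91212514-91212763, plus strand): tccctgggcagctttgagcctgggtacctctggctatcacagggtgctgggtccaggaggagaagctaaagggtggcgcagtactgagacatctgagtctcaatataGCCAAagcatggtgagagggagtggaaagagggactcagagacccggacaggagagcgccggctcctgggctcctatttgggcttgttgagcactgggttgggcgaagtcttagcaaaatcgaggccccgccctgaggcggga
Emilin1 (chr5:30913536-30913785, plus strand): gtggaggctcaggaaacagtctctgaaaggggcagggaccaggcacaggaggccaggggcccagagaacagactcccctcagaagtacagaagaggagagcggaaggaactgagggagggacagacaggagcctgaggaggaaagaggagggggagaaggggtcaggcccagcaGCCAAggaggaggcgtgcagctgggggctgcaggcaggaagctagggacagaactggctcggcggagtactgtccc
In Fbln2 and in Emilin1 the motif lay on the other strand, as GCCAA, with its first letter at position -143 and -76 counted from the start. Searched on both strands, TTGGC was in 41.5% of 32851 mouse promoters of this length, TTGGCA, which contains it, in 12.3%, and the paired site, which contains it on each strand, in 0.0365%. Neither Fbln5 window and neither of the windows of Fbln1 nor that of Fbn1 held TTGGC, and no window held TTGGCA or the paired site, which says only that these letters are not there.

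Eln encodes tropoelastin, the monomer of the elastic core, and lies at chr5:135179651-135223111 on the minus strand (NCBIM37, also called mm9). At day 0 it was at 191, 200 and 193 FPKM in full-length NFIA cells, at 2.81, 2.42 and 2.66 FPKM in Δpro#3 cells, and at 0.0438, 1.40 and 0.00995 FPKM in control cells, from 4, 147 and 1 fragments. The groups did not overlap, and the control replicate with the highest Eln was also the one with the highest Nfia. On the log2 scale Eln was 7.16 higher with full-length NFIA than in control, second of 12105 genes after Sfrp2 (7.55), a secreted inhibitor of Wnt signalling, and ahead of Fmod (6.73), a collagen-binding proteoglycan. It was 1.41 higher with the Δpro#3 mutant than in control and the mutant differed from full-length NFIA by -5.75. Without control replicate 2 the differences from control were 7.57 for full-length NFIA and 1.82 for the mutant, the latter then more than 3-fold.

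At day 7 the level of Eln in the cells with either construct was closer together. Eln was at 8.55, 11.5 and 8.46 FPKM in full-length NFIA cells, at 7.74, 7.79 and 7.22 FPKM in Δpro#3 cells, and at 0.205, 0.170 and 0.221 FPKM in control cells. Both constructs were above control in every sample, 47.8-fold and 38.2-fold by the ratio of mean FPKM, which divides by a low control mean of 0.199 FPKM. The log2 fold changes were 3.12 ± 0.10 (SE, adjusted p = 2.18e-09) with full-length NFIA and 2.84 ± 0.10 (adjusted p = 6.55e-08) with the Δpro#3 mutant. The mutant differed from full-length NFIA by -0.28 (95% interval -0.51 to -0.05, adjusted p = 0.0366), but it did not pass without any 1 of the 3 Δpro#3 samples or without full-length NFIA replicate 2, which put it at -0.15 (adjusted p = 0.116), nor in 3 of the 6 alternatives, a pseudocount of 0.1, no filter on low values and only the groups compared (adjusted p = 0.0672, 0.0661 and 0.0609).

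With forskolin at day 7, Eln was at 7.87, 5.95 and 6.76 FPKM in full-length NFIA cells, at 8.67, 7.14 and 7.39 FPKM in Δpro#3 cells, and at 0.165, 0.252 and 0.163 FPKM in control cells. The 2 construct groups overlapped and both stayed above control, by 2.71 ± 0.10 (adjusted p = 1.78e-09) and 2.87 ± 0.10 (adjusted p = 1.38e-08). The mutant differed from full-length NFIA by 0.15 (95% interval -0.07 to 0.38, adjusted p = 0.199).

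From day 0 to day 7, Eln went opposite ways in the cells with the 2 forms of NFIA. In full-length NFIA cells its mean went from 194 ± 4.76 to 9.49 ± 1.71 FPKM (SD, n = 3), 20.5-fold lower, a log2 difference of -4.23 that is given with no test because day 0 chose the gene. In Δpro#3 cells it rose from 2.63 ± 0.197 to 7.58 ± 0.317 FPKM, by 1.24 ± 0.22 (adjusted p = 6.56e-05). In control cells the mean was 0.485 ± 0.794 FPKM at day 0 and 0.199 ± 0.0264 FPKM at day 7, a difference of -0.19, or 0.22 without control replicate 2 of day 0. Whether the difference between constructs changed from day 0 to day 7 was not tested, since it would use the contrast that chose the gene.

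Ordered by mean FPKM, Eln was highest in full-length NFIA cells at day 0 (194), followed by full-length NFIA at day 7 (9.49), Δpro#3 with forskolin (7.73), Δpro#3 at day 7 (7.58) and full-length NFIA with forskolin (6.86), and these 4 neighbours overlapped from each to the next. Δpro#3 cells at day 0 came next (2.63), above every control sample. The 3 control groups, at 0.485, 0.199 and 0.193 FPKM, overlapped.

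**Figure D1:**
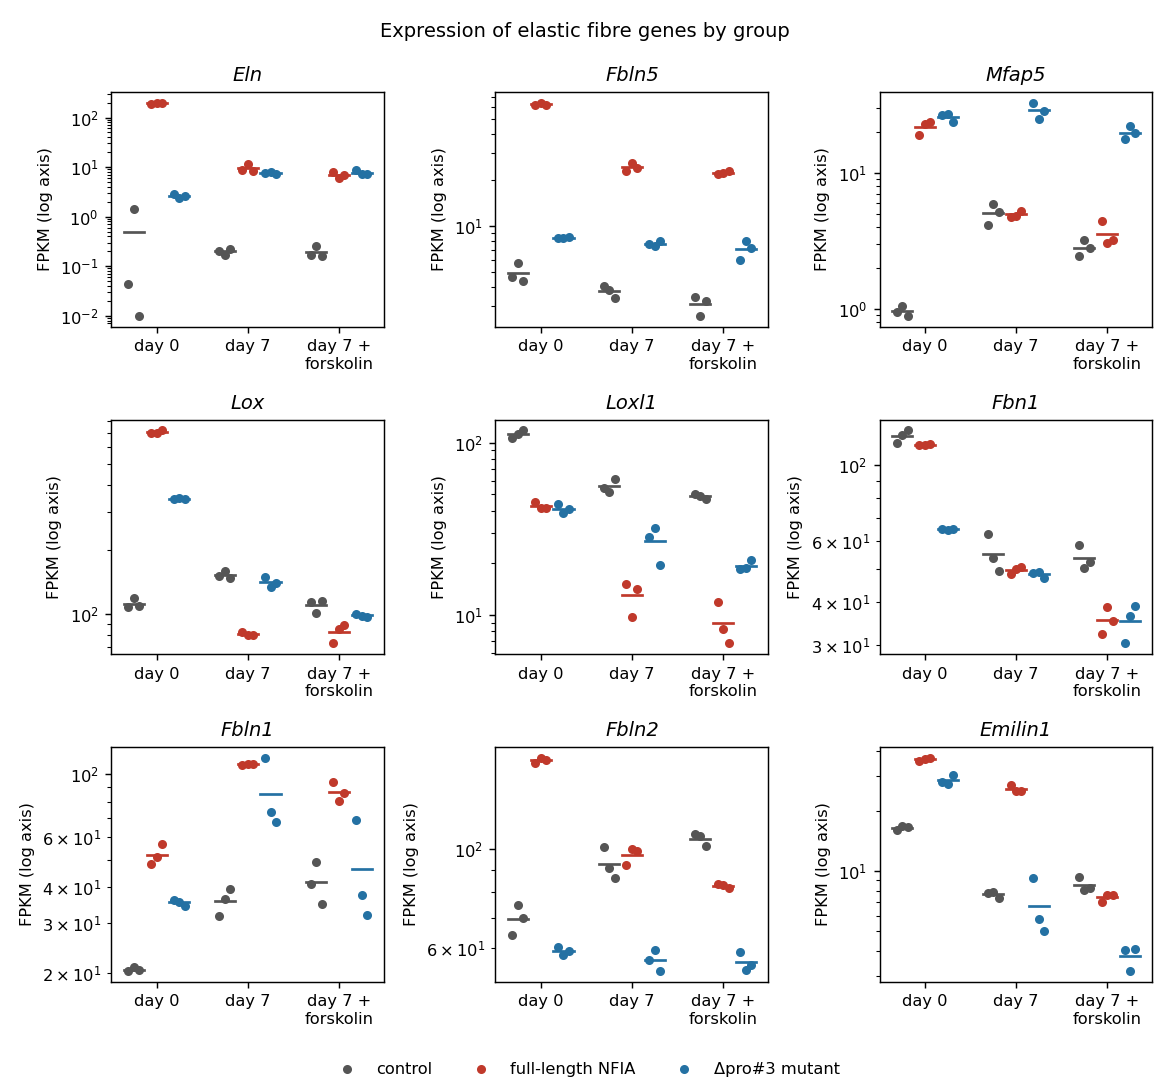
Expression of 9 elastic fibre genes in each of 27 samples (points, FPKM on a log axis) with the group mean (line, n = 3), by day and forskolin along the x axis and by construct in colour; Fbn2, with 3 fragments in all, is not drawn. Eln in full-length NFIA cells sits at 191 to 200 FPKM at day 0 and at 5.95 to 11.5 FPKM at day 7 with and without forskolin, while Mfap5 stays at 17.9 FPKM or more in all Δpro#3 samples.

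The fibulins are secreted glycoproteins that link elastin to microfibrils and basement membranes. Fbln5 (chr12:102984775-103057265, minus strand) encodes fibulin-5, which binds tropoelastin and is needed for elastic fibre assembly. At day 0 it was at 62.2, 64.3 and 61.8 FPKM in full-length NFIA cells, at 8.45, 8.42 and 8.46 FPKM in Δpro#3 cells and at 4.64, 5.75 and 4.37 FPKM in control cells. The order was that of Eln, with no overlap between groups. Against control the log2 difference was 3.44 with full-length NFIA (described only) and 0.68 ± 0.07 with the mutant (adjusted p = 9.51e-06), and the mutant differed from full-length NFIA by -2.76 ± 0.07 (adjusted p = 1.98e-10).

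The order of the 3 constructs for Fbln5 was the same at day 7. The gene was at 22.9, 26.01 and 24.02 FPKM with full-length NFIA, at 7.68, 7.41 and 7.99 FPKM with the mutant and at 4.06, 3.86 and 3.39 FPKM in control, differences from control of 2.41 ± 0.07 (adjusted p = 1.28e-09) and 0.87 ± 0.07 (adjusted p = 1.15e-05). With forskolin the means were 22.4 ± 0.457, 7.07 ± 1.02 and 3.12 ± 0.458 FPKM (SD, n = 3), differences of 2.51 ± 0.10 (adjusted p = 3.53e-09) and 0.97 ± 0.10 (adjusted p = 3.13e-05). Fbln5 was below full-length NFIA in the mutant at day 7, by -1.54 with or without forskolin (adjusted p = 3.70e-08 and 2.51e-07), just short of 3-fold but past it with a pseudocount of 0.1 (-1.65 and -1.66). Over time it fell by 1.34 in full-length NFIA cells (adjusted p = 2.66e-11), fell by 0.31 in control cells (adjusted p = 0.00101) and differed by -0.12 in Δpro#3 cells (adjusted p = 0.141).

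Fbln1 (chr15:85036379-85116965, plus strand) encodes fibulin-1, found in elastic fibres and basement membranes. At day 0 it had 48.1, 51.0 and 57.1 FPKM with full-length NFIA, 36.2, 35.5 and 34.5 FPKM with the mutant, and 20.3, 21.0 and 20.4 FPKM in control cells. The mutant was above control (0.76 ± 0.05, adjusted p = 4.02e-07) and below full-length NFIA (-0.54 ± 0.05, adjusted p = 5.23e-06). At day 7 the levels were 107, 109 and 109 FPKM with full-length NFIA, 31.7, 36.3 and 39.5 FPKM in control and 114, 73.6 and 67.7 FPKM with the mutant, whose replicate 1 was the sample with the most adipocyte marker RNA of its group. Full-length NFIA was 1.58 ± 0.16 above control (adjusted p = 9.42e-06), just under 3-fold, and the mutant 1.19 ± 0.16 above it (adjusted p = 0.000244), or 0.96 without replicate 1. The mutant differed from full-length NFIA by -0.38 (adjusted p = 0.0617) with that replicate and by -0.61 (adjusted p = 0.000152) without it.

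Fbln1 rose from day 0 to day 7 in all 3 kinds of cells, by 0.77 ± 0.13 in control (adjusted p = 4.90e-05), 1.05 ± 0.13 with full-length NFIA (adjusted p = 1.46e-06) and 1.21 ± 0.13 with the mutant (adjusted p = 2.75e-07). With forskolin it was at 69.2, 37.6 and 32.1 FPKM in Δpro#3 cells, replicate 1 again apart, and at 35.0 to 49.3 FPKM in control and 80.3 to 94.0 FPKM in full-length NFIA cells. With forskolin it fell by 0.91 ± 0.22 in Δpro#3 cells (adjusted p = 0.00453), while the differences in control (0.21, adjusted p = 0.574) and full-length NFIA cells (-0.32, adjusted p = 0.233) did not pass the test.

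Fbln2 (chr6:91162449-91222534, plus strand) encodes fibulin-2, which binds fibrillin microfibrils and basement membrane proteins. At day 0 it was at 156, 160.1 and 159 FPKM with full-length NFIA, against 60.4, 58.0 and 59.1 FPKM with the mutant and 64.1, 74.996 and 70.2 FPKM in control. Mutant and control differed by -0.23 ± 0.05 (adjusted p = 0.00166), and the mutant and full-length NFIA by -1.40 ± 0.05 (adjusted p = 1.66e-09). At day 7 full-length NFIA (91.9 to 100.02 FPKM) and control (86.3 to 101 FPKM) overlapped, with a difference of 0.07 (95% interval -0.09 to 0.22, adjusted p = 0.405), while the mutant was at 53.3 to 59.4 FPKM, with a difference from control of -0.70 ± 0.07 (adjusted p = 3.09e-05). With forskolin the means were 106 ± 3.34 FPKM in control, 82.8 ± 0.810 FPKM with full-length NFIA and 55.9 ± 2.71 FPKM with the mutant, both below control (-0.34, adjusted p = 0.000122, and -0.91, adjusted p = 3.82e-07).

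Microfibrils are the scaffold on which elastin is laid down, and fibrillin-1, encoded by Fbn1 (chr2:125126330-125333729, minus strand), is their main protein. Fbn1 was at 116, 122 and 126 FPKM in control cells at day 0, at 114, 114 and 115 FPKM with full-length NFIA and at 65.2, 64.6 and 65.4 FPKM with the mutant. The mutant was thus the group apart, with differences of -0.89 ± 0.03 from control (adjusted p = 2.23e-09) and -0.80 ± 0.03 from full-length NFIA (adjusted p = 4.75e-09). At day 7 the 3 groups lay within 47.1 to 63.2 FPKM and no pair passed the test (adjusted p = 0.110, 0.0730 and 0.702). Fbn1 fell by 1.13 ± 0.06 over time in control, fell by 1.19 ± 0.06 with full-length NFIA and fell by 0.43 ± 0.06 with the mutant (adjusted p = 3.81e-11, 1.30e-11 and 8.08e-06).

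With forskolin Fbn1 was at 50.3 to 58.6 FPKM in control, 32.3 to 38.7 FPKM with full-length NFIA and 30.3 to 39.04 FPKM with the mutant. Both constructs were then below control, with differences of -0.59 ± 0.10 (adjusted p = 0.000260) and -0.60 ± 0.10 (adjusted p = 0.000588). Between them the difference was -0.01 (95% interval -0.23 to 0.21, adjusted p = 0.927).

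Mfap5 (chr6:122455863-122479308, plus strand) encodes a small glycoprotein of microfibrils, MAGP-2. Its pattern set the mutant apart in the other direction. At day 0 it was at 19.0, 22.9 and 23.6 FPKM with full-length NFIA, at 26.7, 27.1 and 23.96 FPKM with the mutant, and at 0.954, 1.05 and 0.893 FPKM in control. The mutant was 3.77 ± 0.08 above control (adjusted p = 5.14e-11) and 0.24 ± 0.08 above full-length NFIA (adjusted p = 0.0180), though the latter did not pass without Δpro#3 replicate 1 or 2 or full-length NFIA replicate 1, which put it at 0.15 (adjusted p = 0.0542). At day 7 it was at 33.1, 25.2 and 28.7 FPKM with the mutant, at 4.80, 4.88 and 5.25 FPKM with full-length NFIA, and at 4.20, 5.93 and 5.17 FPKM in control.

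The Δpro#3 samples were above all others for Mfap5 at day 7. The mutant exceeded control by 2.30 ± 0.12 (adjusted p = 5.62e-07) and full-length NFIA by 2.32 ± 0.12 (adjusted p = 5.77e-08), while full-length NFIA and control differed by -0.02 (95% interval -0.28 to 0.24, adjusted p = 0.885), or by 0.07 with scaling between samples. With forskolin the mutant (17.9 to 22.1 FPKM) was 2.44 ± 0.12 above control (adjusted p = 1.51e-07) and 2.20 ± 0.12 above full-length NFIA (adjusted p = 6.17e-08). Mfap5 rose over time in control cells, by 1.62 ± 0.11 (adjusted p = 3.17e-10), fell by 1.93 ± 0.11 with full-length NFIA (adjusted p = 2.60e-11), and differed by 0.15 (adjusted p = 0.204) with the mutant. Leaving out control replicate 2 of day 7 put the rise in control cells at 1.53, under 3-fold.

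Emilin1 (chr5:31215775-31223651, plus strand) encodes EMILIN-1, a glycoprotein at the interface of elastin and microfibrils. It was at 16.0, 16.8 and 16.6 FPKM in control at day 0, at 35.4, 36.4 and 36.8 FPKM with full-length NFIA and at 27.9, 27.2 and 30.2 FPKM with the mutant, which was 0.75 ± 0.04 above control (adjusted p = 5.46e-08). At day 7 it was at 27.03, 25.1 and 25.1 FPKM with full-length NFIA, at 7.81, 7.91 and 7.36 FPKM in control, and at 9.21, 5.78 and 5.02 FPKM with the mutant. Full-length NFIA was 1.62 ± 0.16 above control (adjusted p = 5.71e-06) and the mutant differed from full-length NFIA by -1.84 ± 0.16 (adjusted p = 3.21e-06). The mutant and control differed by -0.22 (adjusted p = 0.276), and by -0.44 (adjusted p = 0.000964) without Δpro#3 replicate 1, the sample with the most adipocyte marker RNA of its group.

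With forskolin Emilin1 was at 6.98, 7.57 and 7.61 FPKM in full-length NFIA cells, below all samples of these cells without it. The differences were -1.67 ± 0.14 (adjusted p = 4.54e-08) in these cells, -0.65 ± 0.14 (adjusted p = 0.00139) with the mutant and 0.13 (adjusted p = 0.570) in control. The response differed from that of control by -1.80 ± 0.19 in full-length NFIA cells (adjusted p = 4.18e-06) and by -0.78 ± 0.19 in Δpro#3 cells (adjusted p = 0.0263). After forskolin, full-length NFIA and control, at 8.02 to 9.36 FPKM, differed by -0.18 (adjusted p = 0.0941). Over time Emilin1 fell by 1.98 ± 0.12 with the mutant (adjusted p = 2.16e-10), fell by 1.01 ± 0.12 in control (adjusted p = 1.06e-06) and fell by 0.48 ± 0.12 with full-length NFIA (adjusted p = 0.00210).

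Lox and Loxl1 encode lysyl oxidases, the copper enzymes that oxidise lysines of tropoelastin and collagen before these cross-link. Lox (on chromosome 18) reached the highest mean FPKM of the members in any 1 group, at 697, 702 and 721 FPKM with full-length NFIA at day 0, 346, 348 and 344 FPKM with the mutant, and 107, 119 and 109 FPKM in control. The mutant lay between the others, with differences of 1.62 ± 0.04 from control (adjusted p = 1.19e-10) and -1.03 ± 0.04 from full-length NFIA (adjusted p = 3.00e-09). At day 7 the order was turned round: Lox was at 82.3, 80.04 and 79.7 FPKM with full-length NFIA, at 149, 134 and 139 FPKM with the mutant and at 149.9, 158 and 147 FPKM in control. Full-length NFIA then differed from control by -0.90 ± 0.05 (adjusted p = 1.24e-07), and the mutant from full-length NFIA by 0.79 ± 0.05 (adjusted p = 4.67e-07). Mutant and control differed by -0.11 (adjusted p = 0.113).

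From day 0 to day 7 Lox fell by 3.11 ± 0.04 with full-length NFIA (adjusted p = 1.65e-18) and fell by 1.29 ± 0.04 with the mutant (adjusted p = 1.04e-13), and rose by 0.44 ± 0.04 in control (adjusted p = 9.25e-08). With forskolin it fell by 0.47 ± 0.07 in control (adjusted p = 9.44e-05) and fell by 0.51 ± 0.07 with the mutant (adjusted p = 2.34e-05). In full-length NFIA cells the difference was 0.02 (95% interval -0.12 to 0.17, adjusted p = 0.781), and this response differed from that of control by 0.49 ± 0.10 (adjusted p = 0.00107).

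Loxl1 (chr9:58135530-58161019, minus strand) encodes the lysyl oxidase that binds fibulin-5 and acts on elastin. Its highest values were in control cells at each time. At day 0 it was at 106, 112 and 118 FPKM in control, at 45.1, 41.5 and 41.8 FPKM with full-length NFIA and at 43.8, 38.8 and 41.1 FPKM with the mutant, a difference from control of -1.42 ± 0.05 (adjusted p = 2.82e-09). The 2 forms of NFIA overlapped and differed by -0.05 (95% interval -0.17 to 0.06, adjusted p = 0.387). At day 7 the gene was at 54.3, 51.4 and 61.7 FPKM in control, at 28.3, 32.1 and 19.5 FPKM with the mutant and at 15.2, 9.72 and 14.1 FPKM with full-length NFIA.

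The groups no longer overlapped at day 7. Full-length NFIA differed from control by -2.04 ± 0.19 (adjusted p = 3.81e-06), and the mutant differed from control by -1.06 ± 0.19 (adjusted p = 0.00114) and from full-length NFIA by 0.98 ± 0.19 (adjusted p = 0.00108). With forskolin the means were 48.7 ± 1.59, 8.995 ± 2.62 and 19.3 ± 1.32 FPKM, and the differences from control -2.35 ± 0.14 (adjusted p = 8.79e-08) and -1.29 ± 0.14 (adjusted p = 4.19e-05). Over time Loxl1 fell by 0.995 in control, by 1.67 with full-length NFIA and by 0.64 with the mutant, each ± 0.15 (adjusted p = 1.18e-05, 2.12e-08 and 0.000984).

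**Figure D2:**
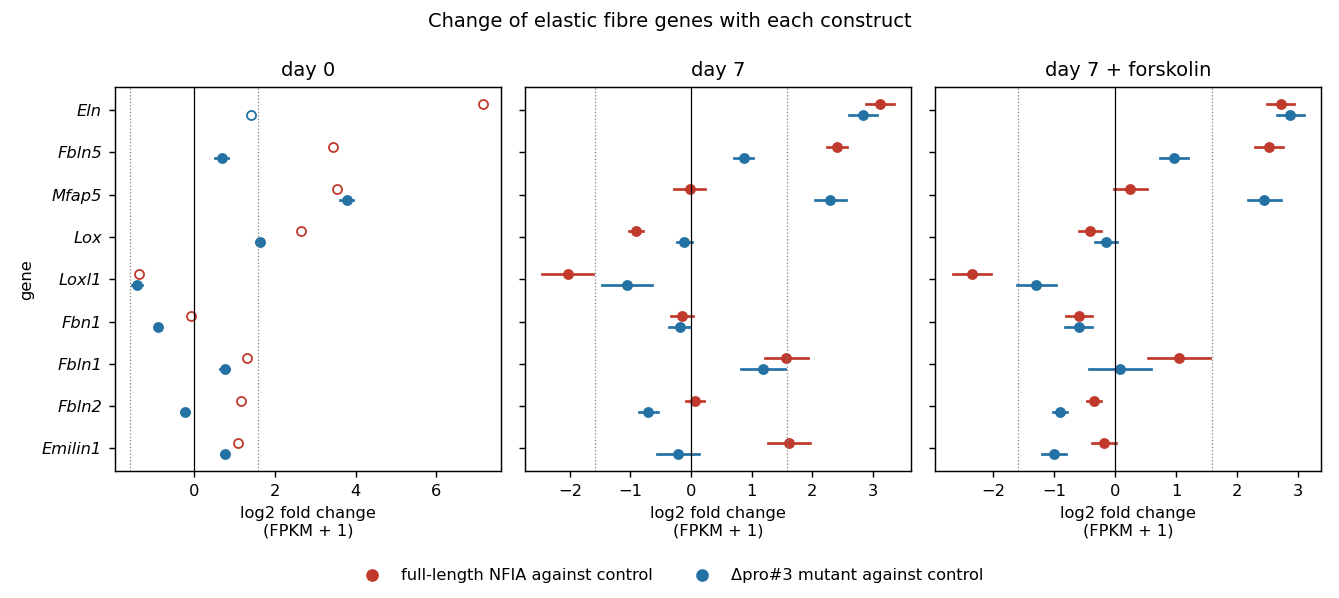
Log2 fold change of FPKM + 1 with full-length NFIA (red) and the Δpro#3 mutant (blue) against control at day 0, day 7 and day 7 with forskolin, for 9 genes; bars are 95% intervals, dotted lines mark 3-fold, and open points without bars are described only because day 0 chose Eln. At day 7 both forms raise Eln (3.12 and 2.84), while Mfap5 is up with the mutant (2.30) and not with full-length NFIA (-0.02, 0.07 with scaling between samples).

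Counted over the 9 members that could be tested, Eln at day 0 included as a description, 4 were more than 3-fold higher with full-length NFIA than in control at day 0 (Eln, Mfap5, Fbln5 and Lox), where 2.46% of 12105 genes were called higher, and the median over members was 1.30 against 0.01 over all genes. With the mutant 2 were called higher than in control at day 0 (Mfap5 and Lox; 0.859% of genes), with a median of 0.75 against 0.01. Eln was past 3-fold as well with a pseudocount of 0.1 (3.25), with voom on the fragments (4.63) and without control replicate 2, which made the count 3. Between the 2 forms at day 0, Eln and Fbln5 were more than 3-fold lower with the mutant (1.12% of genes), with a median of -0.80 against 0.01.

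At day 7, 3 members were called higher with full-length NFIA than in control (Eln, Fbln5 and Emilin1; 4.87% of 12324 genes) and 1 lower (Loxl1; 3.3%). Fbln1 made it 4 higher with a pseudocount of 0.1 (1.60), with scaling (1.68), with voom (1.61) and without control replicate 2 or 3. With the mutant, Eln and Mfap5 were called higher than in control (0.933%), and against full-length NFIA, Mfap5 was called higher (2.6%) and Emilin1 lower (3.7%). The medians over members were 0.07 and -0.11 against control and -0.28 between the forms, beside -0.08, -0.04 and 0.03 over all genes. With forskolin, Eln and Fbln5 were called higher with full-length NFIA (4.25% of 12121 genes), Loxl1 lower (3.77%), Eln and Mfap5 higher with the mutant (0.866%), and Mfap5 higher in mutant than in full-length NFIA cells (2.89%). The medians were -0.18, -0.15 and -0.01, beside -0.17, -0.04 and 0.12 over all genes.

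Over time, 1 member was called higher in control cells (Mfap5; 3.65% of 12408 genes), 4 lower with full-length NFIA (Eln as a description, Lox, Mfap5 and Loxl1, the last under 3-fold with scaling at -1.53 and without full-length NFIA replicate 2 of day 7 at -1.49; 4.71%) and 1 lower with the mutant (Emilin1; 2.93%). By adjusted p alone, full-length NFIA cells had 7 of the 8 members other than Eln lower at day 7, Fbln1 being the exception, where 46.5% of all genes were lower. The medians over members were -0.19 in control, -1.34 with full-length NFIA and -0.12 with the mutant, beside -0.06, -0.11 and -0.11 over all genes.

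The response to forskolin was small for most members. In full-length NFIA cells Emilin1 alone was called lower (0.147% of 12245 genes), just under 3-fold with scaling between samples (-1.55), and 6 members were lower by adjusted p alone, where 41.5% of genes were: Emilin1, Eln, Fbn1, Loxl1, Mfap5 and Fbln2. Eln fell by 0.41 ± 0.11 (adjusted p = 0.00327). With scaling between samples 3 of the 6 still passed, Emilin1, Eln (-0.29, adjusted p = 0.0332) and Fbn1, and the genes past the test in these cells went from 1698 higher and 5087 lower to 2737 higher and 3491 lower. Loxl1 also did not pass without replicate 1 or 3 of these cells at day 7 or replicate 2 or 3 with forskolin (adjusted p up to 0.158), nor Mfap5 without replicate 3 at day 7 or replicate 2 or 3 with forskolin (adjusted p up to 0.0741). Replicate 1 of full-length NFIA with forskolin stood apart from the other 2 over all genes (chi-square per gene 12.8 and 14.2, against 3.27 between those), and without it the same 6 members passed. In Δpro#3 cells 5 members were lower by adjusted p alone (Fbln1, Emilin1, Mfap5, Lox and Fbn1; 23.9% of genes), the same 5 with scaling, and in control cells Mfap5 (-0.66, adjusted p = 0.00127) and Lox were lower (13.5%) and Fbln2 higher (0.19, adjusted p = 0.0352; 7.05%), the last not past the test without control replicate 2 or 3 at day 7 or replicate 1 or 2 with forskolin (adjusted p up to 0.154), nor with only the groups compared (adjusted p = 0.0575). Fbln1 in Δpro#3 cells did not pass with only the groups compared (adjusted p = 0.0567), and Emilin1 was at -0.43 without Δpro#3 replicate 1 of day 7. In these 2 kinds of cells no member changed by more than 3-fold in the limma fits, where 0.588% and 0.392% of genes were called, although 6 and 4 members had an unadjusted p under 0.05.

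The response of full-length NFIA cells differed from that of control cells for 5 members by adjusted p, where 30.6% of genes did. It was lower for Eln (-0.40 ± 0.15, adjusted p = 0.0488), Fbn1 (-0.44 ± 0.13, adjusted p = 0.0205), Fbln2 (-0.41 ± 0.08, adjusted p = 0.00166) and Emilin1, where 21.5% of genes were lower, and higher for Lox, where 9.16% were. With scaling it differed for 3, without Eln (-0.29, adjusted p = 0.170) and Fbn1 (-0.36, adjusted p = 0.0510), and all genes past the test went from 1122 higher and 2630 lower to 1539 higher and 1862 lower. That of Δpro#3 cells differed for Emilin1 (4.97% of genes differed and 2.5% were lower), and for Fbln1 the difference was -1.12 ± 0.31 (adjusted p = 0.0506), or -1.44 ± 0.23 (adjusted p = 0.00170) without replicate 1 of the Δpro#3 samples with forskolin. Over the 18 fits that left out a sample, the difference for Fbln1 ran from -1.44 to -0.89. It passed in 2 of them, and the highest adjusted p was 0.134. The difference for Eln was past the threshold in none of the 6 alternatives (adjusted p = 0.0569 to 0.533), nor in 14 of 18 fits that left out a sample, and that for Emilin1 in Δpro#3 cells was not past it without the filter on low values (adjusted p = 0.0516) or with only the groups compared (adjusted p = 0.0710).

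**Figure D3:**
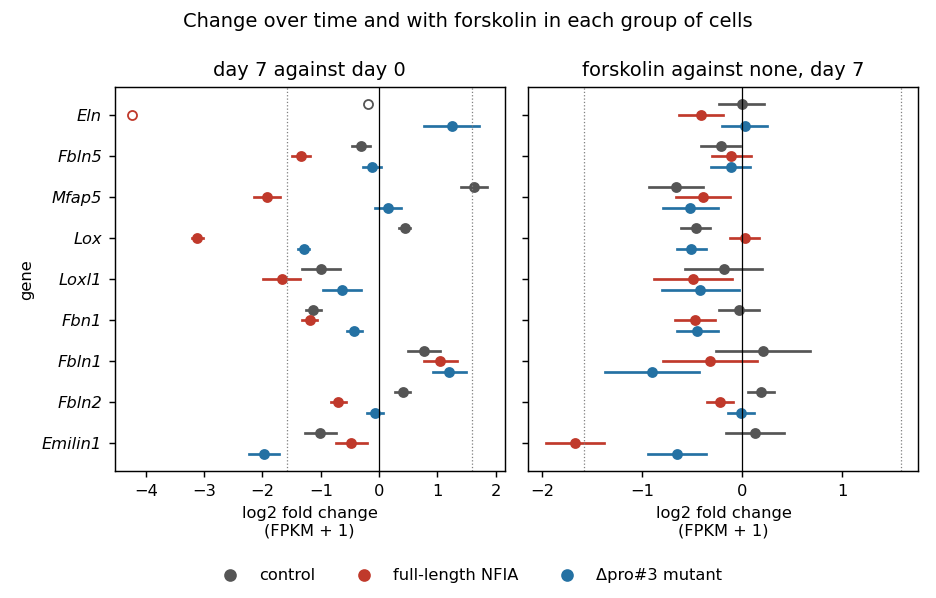
Log2 fold change of FPKM + 1 from day 0 to day 7 (left) and with forskolin against none at day 7 (right) in control, full-length NFIA and Δpro#3 cells for 9 genes; bars are 95% intervals, dotted lines mark 3-fold, and the open points of Eln are described only. Eln and Lox are lower at day 7 in full-length NFIA cells (-4.23 and -3.11), and Emilin1 in the same cells has the lowest point with forskolin (-1.67).

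Among 2345 genes with a mean of at least 1 FPKM and a range of group means of at least 2 on the log2 scale, those whose 9 group means ran most closely with those of Eln were Itga1 (Pearson's r = 0.922), Gm3776 (0.909), Fbln5 (0.907), Vipr1 (0.902) and Gsta1 (0.889). Itga1 encodes the α1 chain of a collagen-binding integrin, Vipr1 a receptor for vasoactive intestinal peptide and Gsta1 a glutathione S-transferase. These 9 points share constructs and days and include full-length NFIA at day 0, the group that chose Eln, so this is a description of likeness that rests on that group. Over the other 8 groups Itga1 and Vipr1 averaged 0.658 and 0.374 FPKM and would not have reached the minimum of 1 FPKM. In full-length NFIA cells at day 0 the means were 8.05 FPKM for Itga1, 7.04 FPKM for Gm3776, 6.34 FPKM for Vipr1 and 15.4 FPKM for Gsta1, and in control cells 0.0757, 0.103, 0.0328 and 0.452 FPKM. The other members tested ran less closely with Eln: Mfap5 (r = 0.569), Lox (0.564), Fbln1 (0.469), Fbln2 (0.433), Emilin1 (0.400), Fbn1 (0.168) and Loxl1 (-0.365). Fbn1 and Fbln2 were under the minimum range. Among members themselves, Loxl1 and Fbln1 had r = -0.872.

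Another 50 genes of elastic fibres and their surroundings were read in the same way: 23 of microfibrils and associated matrix, 8 of cross-linking and processing, 7 of receptors and 12 of proteases and inhibitors. At day 0, 36 could be tested. With full-length NFIA 7 were more than 3-fold higher than in control and 3 lower, given as a description, beside 2.46% of all genes higher and 2.78% lower, with the largest differences for Adamtsl4 (4.22), whose product binds fibrillin-1, Timp3 (3.12), a matrix-bound inhibitor of metalloproteinases, Adamtsl3 (3.00) and Fbln7 (2.74). With the mutant 3 were called higher, beside 0.859% of all genes: Adamtsl4 (3.77, adjusted p = 4.50e-10), Fbln7 (3.41, adjusted p = 3.21e-10) and Adamtsl3 (1.76, adjusted p = 1.91e-10). Between the forms, Ltbp2 (-2.91, adjusted p = 6.49e-11), a latent TGF-β binding protein of microfibrils, and Timp3 (-1.92, adjusted p = 2.04e-09) were lower with the mutant, beside 1.12% of all genes. Efemp1 (2.05, adjusted p = 4.77e-08), which encodes fibulin-3, was higher, beside 0.925% of all genes called higher. The medians over the 36 genes were -0.20 and 0.03 against control and 0.09 between the forms, beside 0.01 over all genes.

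At day 7 with full-length NFIA, 4 of 38 were called higher and 1 lower, beside 4.87% and 3.3% of all genes. Tnxb, which encodes the matrix glycoprotein tenascin-X, went from 0.0220 ± 0.00423 FPKM in control to 24.1 ± 1.44 FPKM (log2 difference 4.61, adjusted p = 1.79e-10), and was at 1.11 ± 0.299 FPKM with the mutant. Adamtsl4 (3.33), Timp3 (2.56) and Ltbp3 (2.0002), a carrier of latent TGF-β, were also higher and Efemp1 (-1.74) lower. With the mutant 2 were called higher, Adamtsl4 (1.95) and Loxl2 (1.72), a lysyl oxidase acting on collagen, where 0.933% of genes were higher. Another 2 were lower, the integrin chain gene Itga8 (-1.75) and Ltbp2 (-1.68), where 0.503% of genes were lower. Against full-length NFIA the mutant had lower Tnxb (-3.58) and Timp3 (-1.89) and higher Efemp1 (2.55). The medians over these 38 genes were -0.01 and 0.24 against control and 0.25 between the forms, beside the all-gene medians given above.

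With forskolin, 39 could be tested, and 4 were called higher and 1 lower with full-length NFIA, beside 4.25% and 3.77% of all genes, among them Tnxb (3.96), Timp3 (3.09), Adamtsl4 (2.53) and Efemp1 (-2.08). With the mutant 3 were called higher and 2 lower, where 0.866% of genes were higher and 0.685% lower. Among them were Tll1 (2.47), which encodes a tolloid-like protease of the procollagen-processing family, Ltbp2 (-2.19), Adamtsl4 (1.85) and Loxl2 (1.80). Against full-length NFIA the mutant had lower Tnxb (-3.06) and Timp3 (-2.54), where 3.31% of genes were lower, and higher Tll1 (2.45) and Efemp1 (2.18). Tll1 was at 5.62, 5.11 and 5.70 FPKM in the Δpro#3 samples with forskolin and at 0.366 FPKM or less in those without it, a log2 difference of 2.38. Tll1, Tnxb and Itga8 passed the filter on low values with forskolin only through the group in which each was highest, as did Tnxb over time, so they had to differ there and these values are a description. Vcan, which encodes versican, a proteoglycan bound by fibulins and fibrillin, rose with forskolin by 2.15 ± 0.09 in Δpro#3 cells (adjusted p = 1.97e-11), where 0.457% of genes were called higher. This response exceeded that of control cells by only 0.58 ± 0.12 (adjusted p = 0.0108), where 4.97% of genes differed, so Vcan rose in control cells too. From day 0 to day 7, 6 of 38 were called lower in control cells, led by Loxl2 (-3.09; 3.05% of genes). With full-length NFIA 7 were lower, led by Adamtsl3 (-3.51; 4.71% of genes), and 1 higher, Tnxb (4.22; 5.38% of genes). With the mutant 6 were lower, led by Adamtsl3 (-2.76; 2.93% of genes). The medians over the 38 were -0.78, -0.90 and -0.88.

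**Figure D4:**
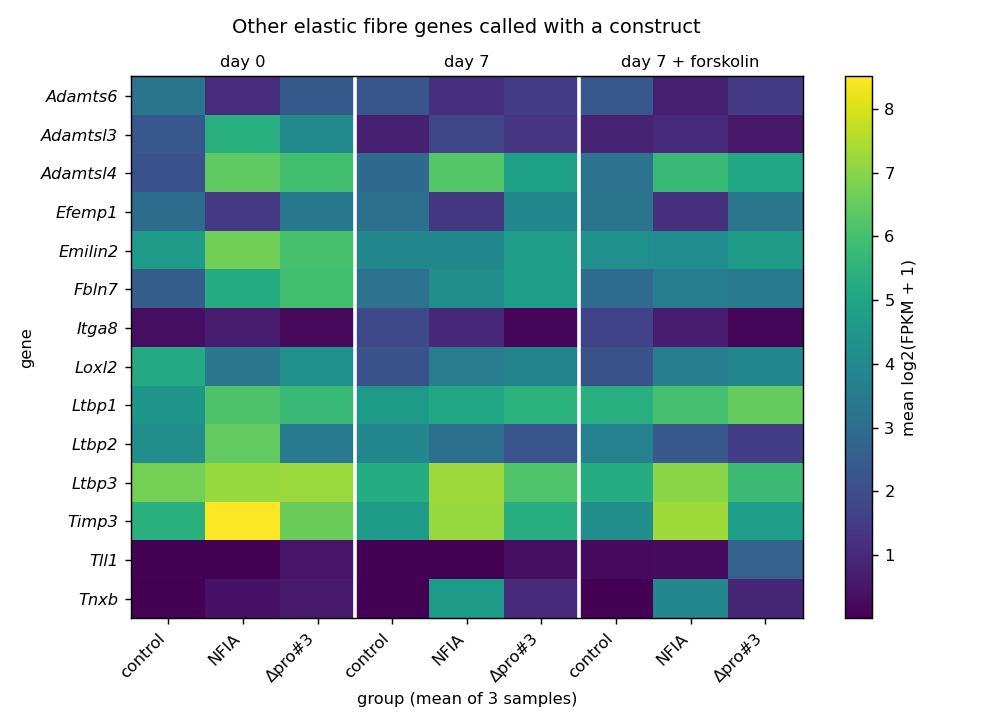
Mean log2(FPKM + 1) of 14 other elastic fibre genes, those called with a construct against control or between forms, in the 9 groups (columns, n = 3 samples each), with the colour scale at the right. Timp3 is brightest in full-length NFIA cells at day 0, Tnxb is brightest in full-length NFIA cells at day 7, and Tll1 stands out in Δpro#3 cells with forskolin.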

How the data were processed

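PolyA RNA of 27 samples (9 groups of 3) was sequenced after stranded library preparation. The authors aligned reads with STAR 2.5.3a to mm9, counted unique alignments that matched a gene's strand, and deposited FPKM per sample for 24825 gene symbols. FPKM times gene length gave whole fragments for 100% of values (tolerance 0.02 fragments or 0.0001 of the value), from 9567769 to 27230965 per sample. A fragment is not an independent molecule, so depth limits counting error only.

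Here, log2(FPKM + 1) was tested with limma 3.58.1 (trend, R 4.3.3) over genes whose FPKM averaged at least 0.5 in the fitted samples: all groups of the day for constructs, days 0 and 7 for time, day 7 with and without forskolin for forskolin. Adjusted p-values are Benjamini-Hochberg over all genes tested. The fit was tested on simulated data. Alternatives were a pseudocount of 0.1, median-ratio scaling, no filter, a replicate block, only the groups compared, voom on the fragments, and each sample left out. Replicates of a group differed beyond counting noise (chi-square per gene 1.52 to 14.2 over 27 pairs, and 11.3 or more only in pairs with replicate 1 of either Δpro#3 group of day 7 or of full-length NFIA with forskolin). Samples of different constructs that share a number did not deviate together (r from -0.173 to 0.131), so no block was used.

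The members and lists were chosen with earlier results of these data known. Named were the 10 members, at most 4 of the other 50 genes per comparison (those called, by size of log2 difference), the 5 genes closest to Eln and Nfia. Neighbours of Eln at day 0 (Sfrp2 and Fmod), Efemp1 with full-length NFIA at day 7, Vcan's response and replicate 1 of Δpro#3 were picked after values were seen. Promoters came from RefSeq (GRCm38.p6), gene positions from the NCBIM37 annotation. No coordinates were converted between these builds.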

Additional observations from a re-analysis of the deposited data

Results flagged for a closer look

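The response to forskolin at day 7 was compared between cells in a limma fit with an interaction term, and 6 differences between groups passed an adjusted p of 0.05. Between full-length NFIA and control cells the response, on the log2(FPKM + 1) scale, differed by -1.80 for Emilin1, -0.44 for Fbn1, -0.41 for Fbln2, -0.40 for Eln and 0.49 for Lox. The difference for Eln did not pass in any of the 6 alternatives, nor that for Fbn1 with scaling between samples. Without replicate 1 of full-length NFIA with forskolin, which stood apart over all genes, the same 5 passed, Eln at -0.50 (adjusted p = 0.0172) and Fbn1 at -0.38 (adjusted p = 0.0487). Fbn1 did not pass without control replicate 3 at day 7 or control replicate 1 with forskolin (adjusted p = 0.0568 and 0.0600). Emilin1 went from 25.7 to 7.39 FPKM with forskolin in full-length NFIA cells, and from 7.69 to 8.52 FPKM in control cells. Lox went from 80.7 to 82.3 FPKM in full-length NFIA cells and from 152 to 109.7 FPKM in control cells. Between Δpro#3 and control cells the response of Emilin1 differed by -0.78, with 6.67 and 3.76 FPKM in Δpro#3 cells without and with forskolin. Leaving out replicate 1 of the Δpro#3 samples at day 7, which had the highest Emilin1 and the most adipocyte marker RNA of its group, made that difference -0.56 (adjusted p = 0.0154). It did not pass in 4 of the 18 fits that left out a sample (highest adjusted p = 0.0758), without control replicate 1 or 3 at day 7, control replicate 1 with forskolin or Δpro#3 replicate 2 with forskolin, nor without the filter on low values or with only the groups compared. Over all genes 30.6% differed in this test between full-length NFIA and control cells and 4.97% between Δpro#3 and control cells.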

How the results depend on the processing

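Of 153 differences of single members, 128 kept their direction and their call in every alternative. The 153 include full-length NFIA against control at day 0. Outside the differences of forskolin response, a difference short of 3-fold counted as kept even where it lost an adjusted p under 0.05. The count of members called for the mutant against full-length NFIA with forskolin was 1, and 2 with a pseudocount of 0.1, with scaling and with voom, where Fbln5 passed 3-fold. At day 7 without forskolin that count was 2, and 3 with a pseudocount of 0.1 and with voom. That for forskolin in full-length NFIA cells was 1, and 0 with scaling (Emilin1 -1.55). The count of members whose forskolin response differed from control was 5 in full-length NFIA cells, 3 with scaling, 4 (without Eln) with a pseudocount of 0.1, no filter, the replicate block and voom, and 5 with Fbln1 in place of Eln with only the groups compared, and 1 in Δpro#3 cells, 0 without the filter, 0 with only the groups compared, 2 with voom and 2 with the replicate block. Leaving out each sample in turn gave 3 to 5 and 0 to 2 for these, 1 to 2 for the mutant against full-length NFIA with forskolin, and 0 to 1 for day 7 against day 0 in control cells (without control replicate 2 of day 7, 1 with all samples), 4 to 5 for full-length NFIA against control at day 7, 3 to 4 for day 7 against day 0 in full-length NFIA cells and 2 to 3 for the mutant against control at day 0. The replicate block lost the difference in response of Eln in full-length NFIA cells and gained that of Fbln1 in Δpro#3 cells, and changed no other call.

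Signs turned with scaling for Mfap5 with full-length NFIA at day 7 (0.0670), for forskolin in control cells for Eln (0.0024) and Fbn1 (0.0189), for forskolin in full-length NFIA cells for Fbln5 (0.0237), and in Δpro#3 cells for Fbln2 with forskolin (0.0275) and over time (0.0610). Eln over time in control cells was 0.0512 with a pseudocount of 0.1 and 0.951 with voom. With a sample left out, signs turned for Eln over time in control cells (-0.402 to 0.223), Eln with forskolin in control (-0.0415 to 0.0112) and Δpro#3 cells (-0.0532 to 0.0710) and its difference between these (-0.0464 to 0.0778), Fbln1 with the mutant and forskolin (-0.247 to 0.296), Fbln2 with forskolin in Δpro#3 cells (-0.0532 to 0.0235), Fbn1 between forms with forskolin (-0.0869 to 0.0897) and with forskolin in control cells (-0.115 to 0.0623), Lox with forskolin in full-length NFIA cells (-0.0336 to 0.108) and Mfap5 with full-length NFIA at day 7 (-0.131 to 0.0774). None of these had passed the test as reported. The causes were not tested.

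Scaling moved the median of all genes from -0.17 to -0.01 for full-length NFIA against control with forskolin, from 0.12 to 0.01 for the mutant against full-length NFIA with forskolin, from -0.15 to -0.04 for forskolin in full-length NFIA cells, and from -0.11 to 0.02 and -0.11 to -0.0013 over time in full-length NFIA and Δpro#3 cells. Over time in full-length NFIA cells, 4115 genes were higher and 5770 lower by adjusted p, and 5037 and 4707 with scaling, and with forskolin 863 and 1651 in control cells became 1119 and 1044, and 1459 and 2927 in Δpro#3 cells became 1784 and 2358. Levels of Eln in control cells rest on 1 to 147 fragments per sample at day 0.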
